A study of Mus musculus with 6 samples.

Results

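The SoxF transcription factors Sox7, Sox17 and Sox18 were examined through H3K9ac, acetylated lysine 9 of histone H3, which marks active promoters and enhancers, in mouse lung endothelial cells. Every peak that the deposited annotation assigned to 1 of the 3 genes was taken, which gave 5 of 17901 peaks: 3 for Sox7, 1 for Sox17 and 1 for Sox18. The mark was profiled by CUT&RUN, in which a nuclease guided by an antibody cuts out the bound DNA for sequencing. The 3 tested libraries came from CSE-KO cells, labelled Cre-positive, and the 3 controls from WT cells, labelled Cre-negative. CSE, encoded by Cth, makes cysteine from cystathionine, and the comparison sets cells labelled as lacking it against cells labelled WT. By label, Cre is present in every CSE-KO library and in no WT library. Its presence therefore cannot be told apart from loss of CSE. The labels do not name the promoter that drives Cre, the age of the mice, or whether each library had its own animal, and the spread behind each p-value is therefore one between libraries, possibly technical.

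SoxF factors bind the minor groove of DNA through a shared HMG box and bend it, at letters close to AACAAT. They overlap in function during blood vessel growth. Sox17 is required for arterial identity and acts upstream of Notch signalling, Sox18 switches on Prox1 at the onset of lymphatic development, and Sox7 acts in early vessel formation and branching.

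Total counts over all peaks were 1173016, 679938 and 685131 in CSE-KO libraries 1 to 3 and 676056, 313610 and 610922 in WT libraries 1 to 3, so the CSE-KO libraries were the deeper ones. All 12 endothelial markers examined had a peak and 9 had one at their start, with a summed level of 2645 to 2941 CPM (counts scaled by library size and TMM factor) in CSE-KO and 2868 to 3057 CPM in WT libraries. All 5 lymphatic endothelial markers had a peak (639 to 696 CPM in CSE-KO, 553 to 643 CPM in WT). Peaks were assigned to 4 of 10 epithelial markers, Epcam, Cdh1, Krt8 and Krt18 (130 to 164 CPM in CSE-KO, 145 to 169 CPM in WT). Of these, Krt18 had a peak at its start. Foxj1, Hopx, Nkx2-1, Sftpa1, Sftpb and Sftpc had no peak. Csf1r was the sole leukocyte marker of 10 with a peak (21.2 to 23.4 CPM in CSE-KO, 16.3 to 38.8 CPM in WT) and Col1a1 the sole mesenchymal marker of 10 (21.9 to 50.8 CPM in CSE-KO, 32.3 to 46.0 CPM in WT), while Ptprc, Pdgfra and Pdgfrb had none. No peak was assigned to Cth, so the labels could not be checked at the targeted gene.

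The members differed first in where their deposited peaks lay. A peak covered the transcription start of Sox7 but none of the table used here covered that of Sox17 or Sox18. The Sox7 start peak spans chr14:63943654-63946542 (coordinates as deposited, on GRCm38), from 52 bp before the start to 2837 bp into the gene, and covers 40.4% of the 7027 bp gene. Its centre lies 1392 bp inside the gene, and the deposited annotation places it in intron 1. The other Sox7 peaks are intergenic and lie 13.8 kb (chr14:63929798-63930109) and 20.9 kb upstream (chr14:63922580-63922981), between Sox7 and Pinx1, the gene of a telomerase inhibitor.

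The peak named for Sox17 lies far from the gene, 120 kb upstream of its start at chr1:4617510-4617946, overlapping the predicted gene Gm29874. Its assignment to Sox17 is by distance alone. The Sox18 peak lies 11.8 kb beyond its start and 9645 bp past the far end of the gene (chr2:181659483-181660192), overlapping the predicted gene Gm29797 and near the splicing factor gene Prpf6. Peaks carry identifiers in order of position on all 21 chromosomes. The peaks on either side of the Sox18 start have consecutive identifiers, while 1 identifier is missing between those on either side of the Sox17 start.

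The Sox7 start peak was among the strongest and broadest of the data set. At 2889 bp it was wider than 99.7% of the 8060 start peaks, whose median was 1074 bp. Its mean level over the 6 libraries exceeded that of 99.2% of start peaks, and per kb of peak that of 85.9%. Within single libraries its rank among start peaks lay between 97.3% and 99.7%.

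The other SoxF peaks had lower levels than the Sox7 start peak. Among 9841 peaks away from starts, 57.2% lay below the Sox18 peak in mean level, 21.2% below the Sox17 peak, 12.2% below the Sox7 peak 20.9 kb upstream and 10.9% below the Sox7 peak 13.8 kb upstream. As CPM per kb of peak, levels in CSE-KO were 76.3 ± 6.997 at the Sox7 start, 49.2 ± 18.5 at Sox18, 45.9 ± 5.52 at the Sox7 peak 20.9 kb upstream, 42.3 ± 16.1 at that 13.8 kb upstream and 38.3 ± 8.73 at Sox17 (SD, n = 3). Below the Sox7 start peak, neighbours in this order did not differ beyond their spread. In WT the levels per kb were 96.1 ± 7.51 at the Sox7 start, 47.3 ± 24.9 at Sox18, 37.7 ± 16.9 at the Sox7 peak 13.8 kb upstream, 36.4 ± 10.9 at Sox17 and 18.2 ± 3.41 at the Sox7 peak 20.9 kb upstream (SD, n = 3). The 20.9 kb peak held the third place in CSE-KO and the last in WT. Its WT level rests on 12 reads and that of the Sox17 peak on 26. Because the 20.9 kb peak passed the filter on low counts through its CSE-KO level, its places are a description and were not tested.

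**Figure D1:**
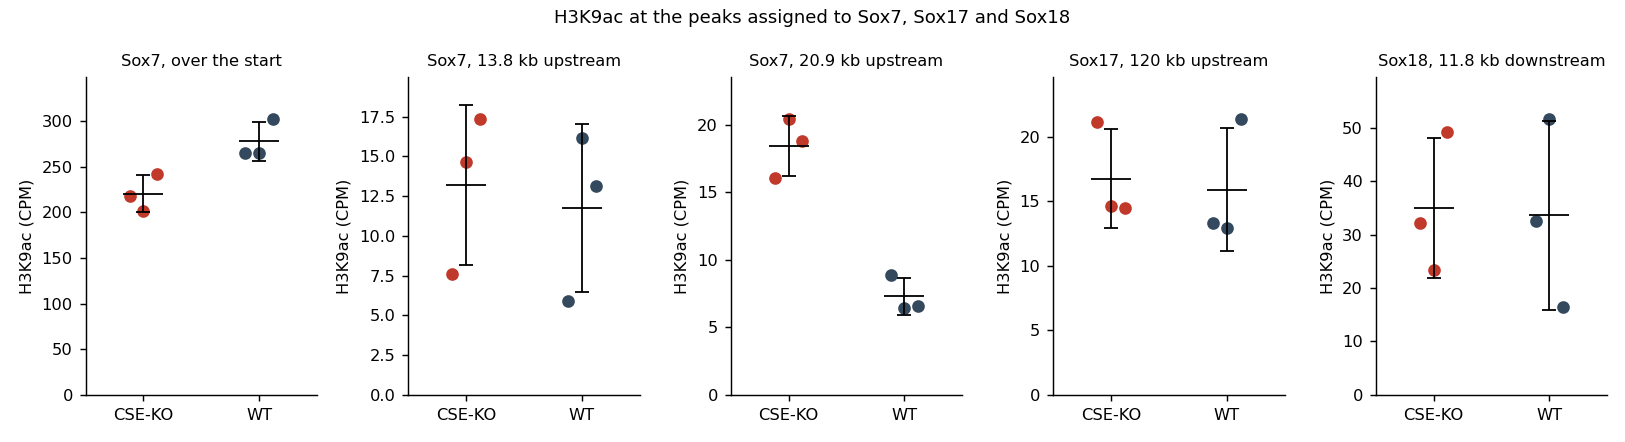
H3K9ac in CPM at the 5 SoxF peaks, with CSE-KO left of WT. Points are libraries, the wide bar the mean and the whiskers the SD (n = 3). The groups do not overlap at the Sox7 start, where CSE-KO is lower, nor 20.9 kb upstream of Sox7, where CSE-KO is higher.

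No SoxF peak was called. Of the 5 peaks 3 passed the filter on low counts and 0 were called (edgeR quasi-likelihood test, adjusted p under 0.05), where 0.0868% of the 16134 tested peaks were. At an unadjusted p under 0.05 edgeR gave 2 of the 3, both at Sox7, 1 higher and 1 lower in CSE-KO, where 7.08% of all tested peaks were reached (3.01% higher and 4.07% lower). DESeq2 and limma voom gave 1 each at that level, and edgeR gave 0 without CSE-KO library 2 or without WT library 3. The higher Sox7 peak passed the filter on low counts through its CSE-KO level, so 2 of 3 cannot be read against the 7.08%. Without the filter edgeR gave 2 of 5. The groups did not overlap in CPM at 2 of the 5 peaks, against 13.4% of all peaks in the table. Of tested peaks, 13.0% had groups apart, 6.09% with CSE-KO higher and 6.9% with CSE-KO lower.

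At the Sox7 start the CSE-KO libraries had 257, 138 and 167 reads, which is 217, 202 and 242 CPM, and the WT libraries had 179, 82 and 184 reads, which is 265, 265 and 303 CPM. Every CSE-KO library lay below every WT library. If the level did differ, fewer cells with the mark and less mark per cell could not be told apart in such data. The mean was 220 ± 20.2 CPM in CSE-KO and 278 ± 21.7 CPM in WT (SD, n = 3 each). The log2 fold change of -0.34 (SE 0.14, 95% interval -0.62 to -0.06) did not pass over all peaks (edgeR adjusted p = 0.64). Among all tested start peaks, 6.86% likewise had every CSE-KO library below every WT library. The authors' deposited table gives a log2 fold change of -0.37 for this peak, with an adjusted p of 0.62.

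The Sox7 peak 20.9 kb upstream leaned the other way. Its counts were 19, 14 and 13 reads in CSE-KO and 6, 2 and 4 reads in WT, or 16.1, 20.5 and 18.8 CPM in CSE-KO and 8.90, 6.46 and 6.58 CPM in WT. Every CSE-KO library was above every WT library, as at 7.09% of tested peaks away from starts. The log2 fold change was 1.26 (SE 0.56, 95% interval 0.14 to 2.39, edgeR adjusted p = 0.66) and did not pass. It rests on 46 reads in CSE-KO and 12 in WT, and the peak passed the filter on low counts through its CSE-KO level. The authors' deposited table gives 1.26 with an adjusted p of 0.74.

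The Sox7 peak 13.8 kb upstream did not pass the filter. It had 9, 10 and 12 reads in CSE-KO and 4, 5 and 8 reads in WT, or 7.62, 14.6 and 17.4 CPM in CSE-KO and 5.93, 16.2 and 13.2 CPM in WT. The groups overlapped. Without the filter its log2 fold change was 0.20 (SE 0.61, edgeR adjusted p = 0.97).

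Summed over its 3 peaks, Sox7 had 253 ± 22.9 CPM in CSE-KO and 296 ± 22.4 CPM in WT (SD, n = 3 each). Its log2 fold change was -0.23 (SE 0.13, 95% interval -0.49 to 0.02). This sum did not pass either (edgeR adjusted p = 0.75 over 10569 genes, of which 0.123% were called). Within the gene, the start peak held 90.2%, 85.2% and 87.0% of the counts in CSE-KO libraries and 94.7%, 92.1% and 93.9% in WT libraries. The means were 87.4% ± 2.53 in CSE-KO and 93.6% ± 1.31 in WT (SD, n = 3 each), a difference of -6.13 percentage points with no overlap (two-sided exact permutation test, p = 0.10, which is the lowest value for 3 against 3). The share does not depend on the scaling between libraries. It was not computed for other genes, so how often groups lie apart in such a share is not known. It is built from the same reads as the single Sox7 peaks, so it is not separate support for a change at them.

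Chosen after the values were seen, the counts of the peak 20.9 kb upstream were also set directly against those of the start peak. The log2 ratio was -3.76, -3.30 and -3.68 in CSE-KO libraries and -4.90, -5.36 and -5.52 in WT libraries. The means were -3.58 ± 0.24 in CSE-KO and -5.26 ± 0.32 in WT (SD, n = 3 each). Both peaks were singled out because their groups lay apart in opposite directions, so the separation follows from that choice and was not tested.

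**Figure D2:**
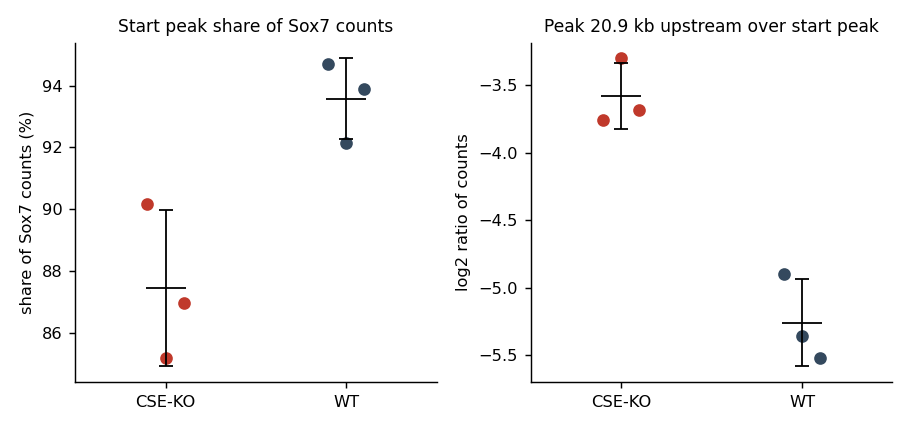
Share of Sox7 counts in the start peak (left, percent) and log2 ratio of the peak 20.9 kb upstream to the start peak (right), for CSE-KO and WT libraries. Points are libraries, bars the mean and whiskers the SD (n = 3), and neither vertical axis starts at 0. In both plots the groups do not overlap, and neither quantity was computed for other genes.

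At the Sox17 peak the groups overlapped. It had 25, 10 and 10 reads in CSE-KO and 9, 4 and 13 reads in WT, or 21.2, 14.6 and 14.5 CPM in CSE-KO and 13.3, 12.9 and 21.4 CPM in WT. The peak did not pass the filter on low counts, and without it the log2 fold change was 0.07 (SE 0.49, edgeR adjusted p = 0.99).

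The Sox18 peak varied widely between libraries of a group. It had 38, 16 and 34 reads in CSE-KO and 22, 16 and 10 reads in WT, or 32.2, 23.4 and 49.2 CPM in CSE-KO and 32.6, 51.7 and 16.5 CPM in WT. Both the lowest and the highest library were WT. The log2 fold change was 0.15 (SE 0.37, 95% interval -0.60 to 0.90, edgeR adjusted p = 0.97), an interval that leaves room for a change in either direction.

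The 3 genes were also compared with each other by the log2 ratio of their summed counts, which needs no scaling. Sox7 over Sox17 averaged 3.93 ± 0.38 in CSE-KO and 4.26 ± 0.30 in WT, Sox7 over Sox18 2.91 ± 0.42 in CSE-KO and 3.29 ± 0.92 in WT, and Sox18 over Sox17 1.02 ± 0.65 in CSE-KO and 0.97 ± 1.22 in WT (SD, n = 3 each). None of the 3 differences exceeded the spread (exact permutation tests, two-sided, p = 0.30, 0.70 and 1.00; adjusted p = 0.90, 1.00 and 1.00).

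The surroundings of the genes gave no called peak. Within 100 kb of the Sox7 start lay 6 peaks of other genes, of which 5 were tested and 0 called (edgeR, lowest adjusted p = 0.75), with none at an unadjusted p under 0.05. The Pinx1 start peak had 77.2 ± 10.3 CPM in CSE-KO and 87.7 ± 13.1 CPM in WT (SD, n = 3 each; log2 fold change -0.14, SE 0.23). The next peak on the gene side, 22.8 kb past the Sox7 start and assigned to 4930578I06Rik, had 16.9, 13.2 and 14.5 CPM in CSE-KO and 5.93, 9.69 and 9.87 CPM in WT. It rests on 39 reads in CSE-KO and 13 in WT and did not pass the filter. The CSE-KO libraries were all above the WT libraries there and at 1 further peak, 68.3 kb past the start in Rp1l1, a photoreceptor gene (26.3 ± 6.40 CPM in CSE-KO and 14.6 ± 2.74 CPM in WT, SD, n = 3 each; log2 fold change 0.79, SE 0.45, edgeR adjusted p = 0.75). At the other 4 the groups overlapped. Over all tested peaks, 6.09% had every CSE-KO library above every WT library, and 7.09% of those away from starts.

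Around the Sox18 start lay 4 peaks of other genes, all at the starts of those genes, with log2 fold changes between -0.15 and 0.40 and overlapping groups. The closest, at -22.1 kb from the Sox18 start and at the start of Rgs19, which encodes a regulator of G protein signalling, had 46.2 ± 7.90 CPM in CSE-KO and 43.0 ± 12.1 CPM in WT (SD, n = 3 each). No deposited peak lay within 100 kb of the Sox17 start, and 1 identifier is missing between the peaks on either side of it.

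**Figure D3:**
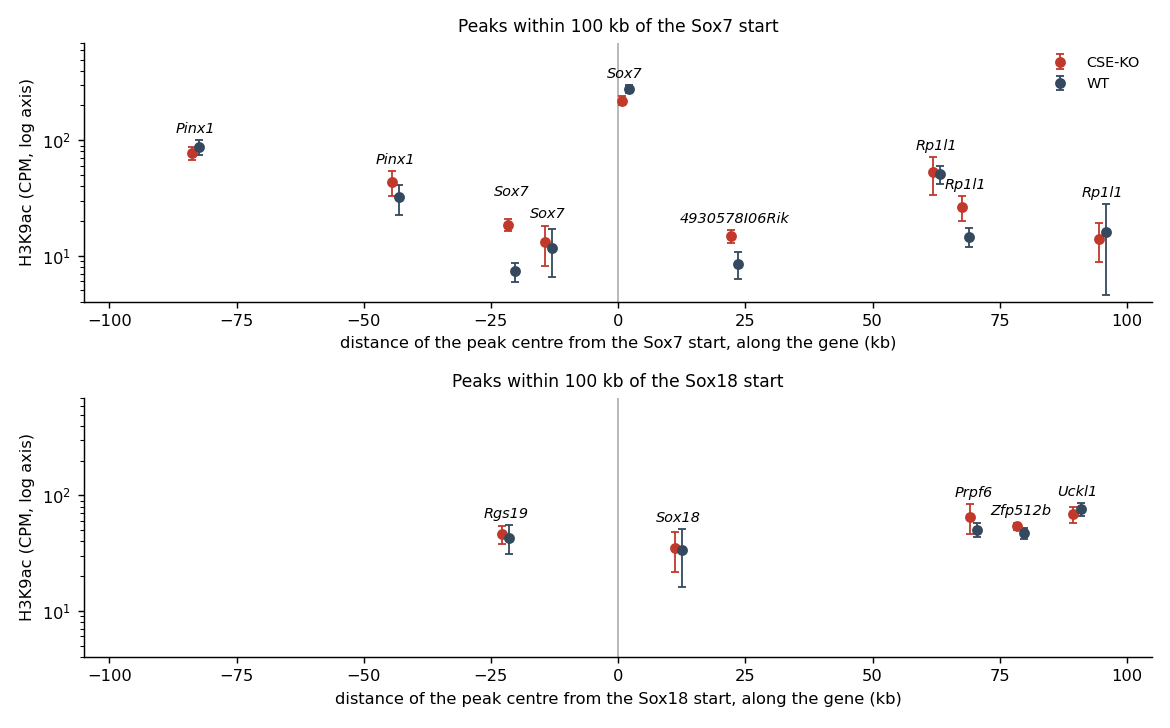
Mean H3K9ac (CPM, log axis) of peaks within 100 kb of the Sox7 (top) and Sox18 (bottom) starts against the distance of the peak centre from the start along the gene, in kb. Whiskers are the SD (n = 3); CSE-KO and WT points are set slightly apart. The Sox7 start peak is the highest of both regions, and the Sox18 start itself has no peak.

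Partners, regulators and targets of SoxF factors in endothelium were taken as a list of 36 genes, of which 29 had a peak. They carried 85 peaks, 76 were tested, and 0 were higher and 0 lower in CSE-KO past the threshold (edgeR), with 9 of the 76 at an unadjusted p under 0.05. Over all tested peaks 0.0868% were called and 7.08% had an unadjusted p under 0.05. Among the 13 genes with a start peak 5 were below 0 (38.5%), against 53.2% of the 7676 genes with a tested start peak. The log2 fold changes of the 13 had a median of 0.10, against -0.02 over the 7676 genes, of which 0.0261% were called. At an unadjusted p under 0.05 lay 4 of the 13, against 5.51% of these genes. The median was -0.02 without WT library 1, -0.0037 without WT library 3 and 0.14 at its highest with a library left out. The list was chosen with earlier results of these data known, so its shares here and below are descriptions and not tests.

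The list members with the smallest unadjusted p lay on both sides of 0. Nr2f2, the venous factor that opposes arterial fate, had 195, 149 and 143 CPM in CSE-KO and 265, 249 and 206 CPM in WT at a peak centred 2481 bp from its start (log2 fold change -0.54, SE 0.16, edgeR adjusted p = 0.37). Cdh5, a cadherin of endothelial junctions, had 189, 189 and 193 CPM in CSE-KO and 234, 284 and 232 CPM in WT at its start (log2 fold change -0.38, SE 0.15, edgeR adjusted p = 0.62). At the start of Notch4, an endothelial Notch receptor, the values were 51.6, 55.6 and 29.0 CPM in CSE-KO and 65.2, 67.9 and 87.2 CPM in WT (log2 fold change -0.69, SE 0.27). In these 3, picked by their small p, the CSE-KO libraries all lay below the WT libraries. The Nr2f2 peak is not a start peak. Over the list's 13 start peaks the same held at 3, those of Cdh5, Notch4 and Ets1, with 0 the other way. Of all tested start peaks, 6.86% had CSE-KO lower in this way.

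Higher in CSE-KO, also short of the threshold, were a peak 37.1 kb inside Tek, the angiopoietin receptor (24.5, 21.9 and 29.0 CPM in CSE-KO, 7.41, 16.2 and 9.87 CPM in WT), and the start of Tie1, its co-receptor (70.2, 45.3 and 69.5 CPM in CSE-KO, 37.1, 48.5 and 32.9 CPM in WT). Their log2 fold changes were 1.27 (SE 0.49) and 0.70 (SE 0.29), with edgeR adjusted p of 0.61 and 0.64. A peak assigned to Efnb2, the arterial ephrin, over a distance of 387 kb had 80.3 ± 19.6 CPM in CSE-KO and 50.03 ± 13.0 CPM in WT (SD, n = 3 each; log2 fold change 0.64, SE 0.27). The groups overlapped at Tie1 and Efnb2 and not at the Tek peak. Ets1, an ETS factor of endothelium, had 149 ± 16.4 CPM in CSE-KO and 199 ± 29.4 CPM in WT at its start (SD, n = 3 each; log2 fold change -0.39, SE 0.16), a value named after it was seen.

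**Figure D4:**
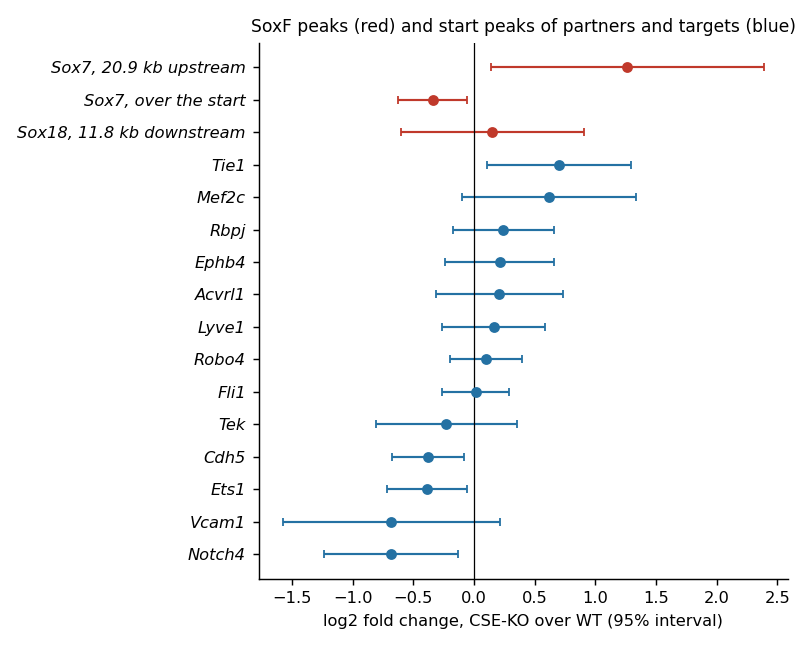
Log2 fold change of CSE-KO over WT with its 95% interval for the 3 tested SoxF peaks (red) and the start peaks of 13 partners and targets (blue). The fold change of the Sox7 start peak is close to those of Cdh5 and Ets1, and no peak shown passed the threshold over all peaks.

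The letters AACAAT, or ATTGTT on the other strand, were searched in RefSeq promoter windows (GRCm38.p6, 250 bases before to 50 after a start), of which 10.7% hold them among 32851. Windows were found for 7 of the 13 genes, and 1 of their 10 windows held the letters, that of Tek. It is shown with the window of Notch4, the named start peak that covers its whole window, where the letters were not found. Capitals mark the match, which begins at position -63 from the Tek start. The Tek window is chr4:94739039-94739338 and the Notch4 window chr17:34564045-34564344, both on the plus strand.
Tek: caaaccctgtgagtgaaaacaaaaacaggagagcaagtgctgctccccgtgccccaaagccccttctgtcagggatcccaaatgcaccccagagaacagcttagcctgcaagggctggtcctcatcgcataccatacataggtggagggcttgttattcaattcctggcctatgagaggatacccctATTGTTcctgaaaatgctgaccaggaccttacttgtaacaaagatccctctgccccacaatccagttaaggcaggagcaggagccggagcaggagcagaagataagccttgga
Notch4: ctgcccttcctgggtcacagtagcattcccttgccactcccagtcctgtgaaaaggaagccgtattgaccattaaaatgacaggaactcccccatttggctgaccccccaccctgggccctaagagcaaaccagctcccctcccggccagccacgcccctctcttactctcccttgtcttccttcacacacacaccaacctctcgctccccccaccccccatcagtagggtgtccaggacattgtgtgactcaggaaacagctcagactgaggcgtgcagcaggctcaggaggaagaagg
The Tek start peak had 49.1 ± 16.2 CPM in CSE-KO and 61.4 ± 15.2 CPM in WT (SD, n = 3 each; log2 fold change -0.23, SE 0.29) and overlaps the last 43 bases of the Tek window. The match itself therefore lies outside the peak. A match is a description of the sequence and not a bound site.

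No peak of another Sox gene was called. The deposited annotation assigned 9 peaks to Sox4, Sox5, Sox11 and Sox13, all were tested and 0 were called (edgeR), with log2 fold changes from -0.70 to 0.31. Over all tested peaks 0.0868% were called and 7.08% had an unadjusted p under 0.05. The one peak at an unadjusted p under 0.05 belongs to Sox4, a SoxC gene, 2680 bp from its start, and had 35.6 ± 3.98 CPM in CSE-KO and 56.1 ± 20.4 CPM in WT (SD, n = 3 each; log2 fold change -0.70, SE 0.30, edgeR adjusted p = 0.64). Its groups overlapped, with 39.8, 35.1 and 31.9 CPM in CSE-KO and 78.6, 38.8 and 51.0 CPM in WT. The main Sox4 peak, centred 1026 bp from the start, had 159 ± 18.2 CPM in CSE-KO and 159 ± 9.66 CPM in WT (SD, n = 3 each; log2 fold change -0.02, SE 0.17).

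**Figure D5:**
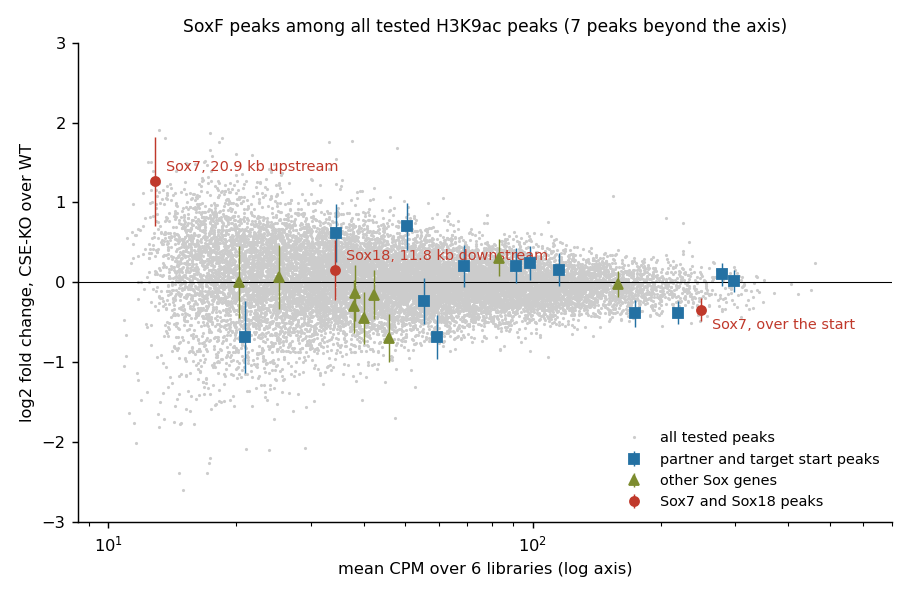
Log2 fold change of CSE-KO over WT against mean CPM (log axis) for all tested peaks (grey), with Sox7 and Sox18 peaks, other Sox genes and partner start peaks marked; whiskers are the SE, and 7 peaks lie beyond the vertical axis. The Sox7 start peak sits at the high end of the abundance range and its upstream peak at the low end.

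The start peaks whose levels over the 6 libraries were most like that of the Sox7 start peak, by Pearson's r of log2 CPM, belonged to Ppp1r7 (r = 0.99), a regulator of protein phosphatase 1, Ywhaz (r = 0.99), a 14-3-3 protein gene, and Fnbp4 (r = 0.98). With 5699 start peaks compared over 6 libraries, 40 had an r above 0.9. Ppp1r7 had 64.6 ± 10.6 CPM in CSE-KO and 90.6 ± 8.62 CPM in WT (SD, n = 3 each; log2 fold change -0.50, SE 0.23, edgeR adjusted p = 0.68). The log2 fold change was -0.20 (SE 0.17) at Ywhaz and -0.15 (SE 0.18) at Fnbp4. These genes were picked for following the Sox7 start peak, so a lower level in CSE-KO follows from that choice.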

How the data were processed

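H3K9ac CUT&RUN counts of 6 mouse libraries were used. Per the submitters' processing notes, the tools were STAR 2.7.11a, featureCounts, DESeq2 1.36.0, Trimmomatic 0.39 and Picard 3.1.1. They also name the build mm39, but gene starts implied by the deposited coordinates match GRCm38. No peak caller is named there. The authors deposited raw counts per peak and library, with their own normalized values, RPKM and test results, per the file headers. The table holds 75.0% of the numbered peaks. The prefix of the normalized columns' names differs between WT and CSE-KO. No label explains it, and any batch aligned with genotype cannot be told apart from genotype.

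Counts were tested over the whole table with edgeR 4.0.16 (R 4.3.3): filterByExpr (minimum count 10, leaving 16134 peaks), TMM, glmQLFTest on group, two-sided, with Benjamini-Hochberg adjustment. SEs come from the quasi-likelihood F statistic and 95% intervals from its degrees of freedom. Counts were also summed by gene symbol. A start peak was annotated as promoter, had its centre within 1 kb of a start, or covered it. Library pairs within a group differed by more than sampling noise (chi-square over degrees of freedom, 1.91 to 2.14). Named genes are the members, the nearest neighbours, up to 6 list members by smallest p, other Sox peaks under an unadjusted p of 0.05 and 3 look-alikes of a start peak. Members and lists were chosen with earlier results of these data known. The self-test on simulated data was passed. Alternatives included DESeq2 1.42.0 and limma 3.58.1.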

Additional observations from a re-analysis of the deposited data

How the results depend on the processing

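No SoxF peak was called under any of the 15 alternatives, nor was a peak of other genes near their starts, of the partner list or of other Sox genes. The Sox7 start peak stayed below 0 in all 15 (log2 fold change -0.40 to -0.27, adjusted p 0.52 to 1.00) and the peak 20.9 kb upstream above 0 in the 14 that could be fitted (1.13 to 1.46, adjusted p 0.62 to 1.00). The count over all peaks, 14, was 7 with DESeq2, 8 at a mean count of 50 or more and 3 without MuLV-int peaks. It ranged from 6 (without CSE-KO replicate 1) to 13 with a library left out, with 8 without CSE-KO replicate 3 and 7 without WT replicate 3.

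With a library left out, the Sox7 sum lay between -0.30 and -0.16, the Sox18 sum between -0.20 (without WT replicate 3) and 0.49, with -0.14 without CSE-KO replicate 3. The Sox17 sum, which did not pass the filter and was 0.09 without it, lay between -0.064 (without WT replicate 1) and 0.38. Single peaks also turned. The Sox18 peak ranged from -0.21 (without WT replicate 3) to 0.48, with -0.15 without CSE-KO replicate 3. The Sox17 peak ranged from -0.074 (without WT replicate 1) to 0.37, with -0.011 without WT replicate 2, and the Sox7 peak 13.8 kb upstream from -0.18 (without WT replicate 1) to 0.53. The Sox7 start share differed by -7.49 to -5.00 percentage points. The log2 ratio differences lay between -0.50 and -0.12 (Sox7 over Sox17), -0.78 and 0.13 (Sox7 over Sox18; 0.13 without WT replicate 3) and -0.63 and 0.56 (Sox18 over Sox17; -0.33 without CSE-KO replicate 3, -0.63 without WT replicate 3). The cause was not tested.

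Same-numbered libraries deviated together with r of 0.06, 0.01 and 0.01, the first being the number 1 libraries. Pairs with different numbers had r between -0.03 and 0.02. Not every library correlated best with its own number. Such small values neither show nor exclude a pairing by number. With the replicate block, 15 peaks were called, none of them SoxF, and the Sox7 and Sox18 sums were -0.22 and 0.16. Start shares by promoter annotation alone and ratios of start peaks alone gave no value, as no SoxF peak is annotated as promoter and Sox17 and Sox18 have no start peak. Library totals implied by RPKM gave 14 calls. No scaling tried can show a change shared by all peaks, and counts of 2 to 38 reads per library limit the distal peaks.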
